A study of Homo sapiens with 8 samples.

Results

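The 58 genes described here act in G2 and mitosis. They are mitotic kinases, cyclins, kinetochore, spindle, condensin and cytokinesis genes, chosen by symbol from a list of functions. All 58 were found among the 19414 genes of the deposited tables, and all 58 were among the 9673 genes that passed the filter on low values. U2OS, an established human osteosarcoma cell line, was profiled by RNA-seq in 8 libraries that fall into 4 groups of 2. By the genotype labels these groups are WT, with neither factor, MYC, which overexpresses the transcription factor MYC, Zab, and Zab+MYC, which has both. Zab is Zαβ in the design text, a name commonly given to the part of ADAR1, an RNA editing enzyme, that binds left-handed nucleic acids. The promoter behind each factor, the time of expression and whether a line is 1 clone are not given in the sources used here. The series title ties MYC and the histone chaperone FACT to Z-DNA, a left-handed double helix. The question of the design is what MYC does to transcription in the presence of Zab.

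As background, cells enter mitosis when CDK1, bound to cyclin A or B, is freed of inhibitory phosphate by CDC25 phosphatases. Polo-like and aurora kinases then build the spindle, kinetochores tie chromosomes to it, and the spindle checkpoint holds back CDC20 until every kinetochore is attached. The anaphase-promoting complex (APC/C), an E3 ubiquitin ligase switched on by CDC20, then marks securin and cyclin B for destruction, and cytokinesis follows. The mRNAs of these genes rise together in G2, under the MuvB complex with B-MYB and then FOXM1, and are held down in G0 and G1 by MuvB in the DREAM complex. MuvB reads a short promoter element called the CHR, with the core TTTGAA or, less often, TTCGAA, and NF-Y reads the CCAAT box that often lies upstream of it.

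The promoter windows of 4 members are shown because their genes carry such elements and moved differently with MYC. CCNB2 and NUSAP1 fell with MYC overexpression and CDC20 and CCNB1 did not. Each window runs from 250 bases before the gene's start to 50 after it, 5′ to 3′, from RefSeq on GRCh38.p14. Capitals mark both CHR cores and the CCAAT box on either strand, so that a CCAAT box on the opposite strand reads ATTGG.
CCNB2, chr15:59104896-59105195, plus strand: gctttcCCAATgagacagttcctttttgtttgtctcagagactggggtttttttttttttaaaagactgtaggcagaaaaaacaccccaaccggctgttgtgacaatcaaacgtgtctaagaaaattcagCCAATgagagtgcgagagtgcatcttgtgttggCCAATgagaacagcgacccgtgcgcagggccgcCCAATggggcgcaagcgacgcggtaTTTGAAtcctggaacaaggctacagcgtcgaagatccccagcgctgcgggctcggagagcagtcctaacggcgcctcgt
NUSAP1, chr15:41332631-41332930, plus strand: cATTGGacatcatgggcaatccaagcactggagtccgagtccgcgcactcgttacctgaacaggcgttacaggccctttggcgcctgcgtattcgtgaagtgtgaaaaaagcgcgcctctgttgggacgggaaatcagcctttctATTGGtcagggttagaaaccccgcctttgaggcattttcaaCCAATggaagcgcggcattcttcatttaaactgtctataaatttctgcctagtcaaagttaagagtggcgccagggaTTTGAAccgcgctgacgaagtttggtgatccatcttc
CDC20, chr1:43358731-43359030, plus strand: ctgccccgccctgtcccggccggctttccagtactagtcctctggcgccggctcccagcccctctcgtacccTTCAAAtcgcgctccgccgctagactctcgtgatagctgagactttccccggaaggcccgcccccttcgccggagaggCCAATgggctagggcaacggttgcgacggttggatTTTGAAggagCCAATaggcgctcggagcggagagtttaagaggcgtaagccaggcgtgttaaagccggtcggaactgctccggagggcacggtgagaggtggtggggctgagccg
CCNB1, chr5:69166900-69167199, plus strand: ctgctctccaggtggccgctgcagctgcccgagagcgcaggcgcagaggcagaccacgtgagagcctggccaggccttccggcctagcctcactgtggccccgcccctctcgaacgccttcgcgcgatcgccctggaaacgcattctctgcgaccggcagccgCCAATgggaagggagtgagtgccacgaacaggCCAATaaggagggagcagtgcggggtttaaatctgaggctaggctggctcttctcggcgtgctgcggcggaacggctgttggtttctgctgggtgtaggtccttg

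RefSeq windows were at hand for 50 of the 58 members, 62 windows in all because some genes have several starts. TTTGAA or TTCGAA lay in 43 of the 62 (69.4%), against 16.4% of all 35116 windows of the same length. CCAAT lay in 45 (72.6%), against 34.6% of all windows. The E-box CACGTG, the site read by MYC with MAX, lay in 5 (8.06%), against 7.26% of all windows, and the forkhead motif GTAAACA in 1 (1.61%), against 3.42%. All were searched on both strands, and none of these motifs contains another. Among members that fell with MYC the CHR core lay in 28 of 39 windows (71.8%), and among those not called with MYC in 13 of 20 (65.0%). CCAAT lay in 25 of 39 windows (64.1%) of members that fell with MYC and in 17 of 20 (85.0%) of those not called. The 39 windows came from 30 genes and the 20 from 17. With Zab the CHR core lay in 24 of 30 windows (80.0%) of members that fell and 19 of 32 (59.4%) of those not called. The 30 windows came from 28 genes and the 32 from 22. All these shares count windows, so genes with several starts weigh more than once. CDC25B and CDC25C each have windows with and without the CHR core, and neither was called with Zab. Shares by gene were not taken, so these differences between windows are not differences between genes. In CCNB2 the CHR core began 29 bases before the gene's start, below 4 CCAAT boxes. In NUSAP1 it began at base 14 after the start, and in CDC20 there was a match 65 bases before the start and another on the opposite strand. The CCNB1 window holds 2 CCAAT boxes and an E-box, and these CHR letters do not occur in it. A match is a run of letters, not a bound site.

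Exon tags per library, the depth behind every value, ran from 686992 to 1326166. The 2 libraries of a group differed by no more than counting noise in all 4 groups. Chi-square per degree of freedom over genes with at least 10 tags was 0.985 to 1.01, with p from 0.18 to 0.85 (chi-square test), against 3.87 or more between libraries of different groups. Nothing in the labels says that they came from separate cultures, so they cannot be told apart from repeats of 1 preparation. The p-values below then measure counting noise between these libraries and not the spread between cultures. For this reason counts are also given with the 2 libraries summed as 1 sample and a plain 1.5-fold limit in place of a test. MYC stood at 73.6 and 96.2 CPM in WT, 1255 and 1308 CPM with MYC, 233 and 197 CPM with Zab and 718 and 716 CPM with both. ADAR, whose reads the values do not separate from those of a Zab construct, stood at 268 and 274 CPM in WT, 250.72 and 234 CPM with MYC, 6092 and 6286 CPM with Zab and 1083 and 1034 CPM with both. So the labels were borne out, but both mRNAs were lower in Zab+MYC than in the group with that factor alone. Of 7 markers of bone and mesenchyme, VIM, SPARC and COL1A1 had tags in all libraries and RUNX2 was low at 5.59 to 22.4 CPM. ALPL was at 0 in 2 libraries and reached at most 7.19 CPM, COL1A2 had tags in 2 libraries and TWIST1 had none. The group means of COL1A1 were 1157 CPM in WT, 117 with MYC, 813 with Zab and 229 with both, and those of SPARC 1876 CPM in WT, 387 with MYC, 1313 with Zab and 657 with both. The summed level of 4 immune markers stayed at or below 1.90 CPM in every library, with the T cell marker CD3E at 0 in all 8, and that of 3 endothelial markers at or below 5.10 CPM. The 3 fibroblast markers summed to 19.4 and 21.1 CPM in WT, 3.22 and 3.79 with MYC, 12.4 and 16.0 with Zab and 3.60 and 4.44 with both. The 4 epithelial markers summed to 30.7 and 32.3 CPM in WT, 2.84 to 3.62 in MYC, 4.37 to 6.83 in Zab and 3.95 to 4.32 in Zab+MYC. Most of the WT sum was KRT14, at a mean of 27.2 CPM, and CDH1 was at 0 in 7 of the 8 libraries. The part of these markers in the results was not tested.

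Values are in CPM, exon tags scaled to a common total over the genes tested, with TMM scaling. Folds were taken after adding 2 CPM and moving to log2, so that those of genes with few tags are understated, and "rose" or "fell" means a limma adjusted p under 0.05 over all 9673 genes. The 58 genes in sum held 1.14% and 1.11% of the exon tags of WT libraries, 0.835% and 0.857% with MYC, 0.775% and 0.785% with Zab and 0.950% and 0.934% with both. The WT libraries are the highest and the Zab libraries the lowest, and no groups overlap. By group mean, 37 of the 58 were highest in WT, against 32.8% of all genes tested, and 31 were lowest in Zab, against 19.0%. In bulk RNA, fewer cells in G2 and mitosis and less of these mRNAs per cell cannot be told apart.

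**Figure D1:**
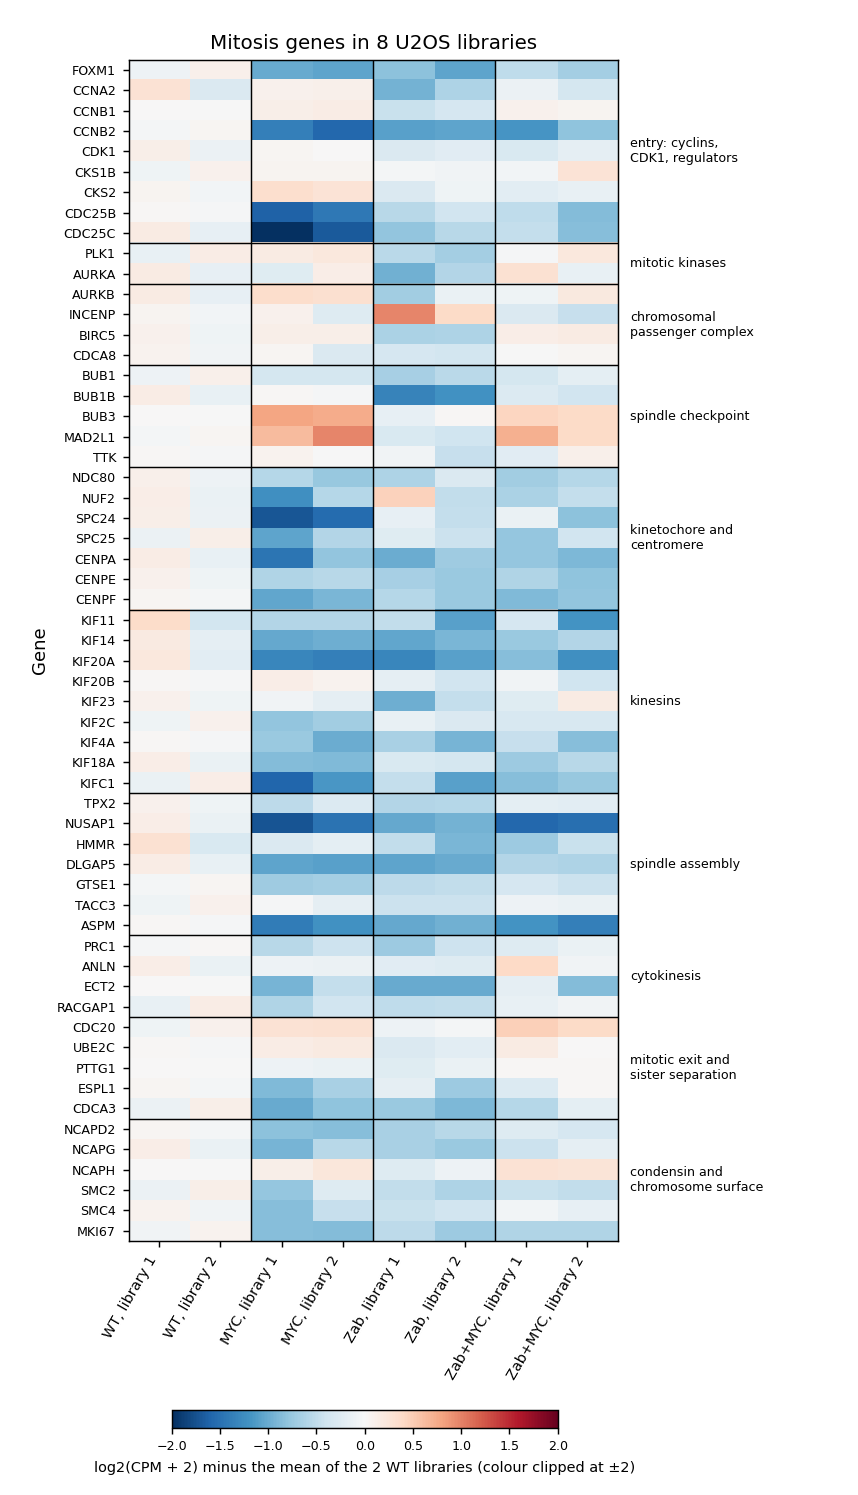
Each row is 1 of the 58 genes, grouped by role, and each column 1 library; colour gives log2(CPM + 2) minus the mean of the 2 WT libraries, clipped at 2 in either direction. Blue fills most of the MYC and Zab columns and is paler in Zab+MYC, while BUB3, MAD2L1 and CDC20 are red in both MYC groups.

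Per kilobase of the transcript counted, the members spanned a wide range of levels. In WT the highest was UBE2C, the ubiquitin-conjugating enzyme of the APC/C, at 895 CPM per kb. It was followed by CCNB1, cyclin B1, at 542, PTTG1, securin, at 401, and CDC20, the APC/C activator, at 366. The lowest were INCENP at 4.82, KIF11 at 6.73 and KIF14 at 6.74 CPM per kb. The 4 at the top are parts of the cyclin B and APC/C switch that drives cells out of mitosis.

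MYC overexpression without Zab lowered most of the list and raised 5 members. In MYC against WT 33 of 58 members fell, against 30.4% of all genes tested, and 5 rose, against 27.8%. So 56.9% of the members fell and 8.62% rose. The members' median log2 change was -0.55, beside -0.04 over all genes tested. With the libraries summed, 28 members were at least 1.5-fold lower and 2 higher, against 29.4% and 24% of all genes. Of the 33, 11 fell at least 2-fold. Over all genes tested, the 18th percentile of the log2 change was -1.018 and the 19th -0.9732. The share of members that fell at least 2-fold was thus near that over all genes. 

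Of 9 entry genes, 4 fell and 1 rose. FOXM1 (chr12:2966847-2986321, hg19), the forkhead factor that drives G2 transcription, stood at 347 and 401 CPM in WT, 184 and 179 CPM with MYC, 209.6 and 178 CPM with Zab and 261 and 231 CPM with both. Both WT libraries are above all other libraries. FOXM1 fell 2.04-fold with MYC (log2 -1.03 ± 0.10 SE, limma adjusted p = 7.5e-14). CDC25C, which removes the inhibitory phosphate from CDK1, had the largest change of the list, with 33.9 and 26.9 CPM in WT, 2.37 and 8.05 CPM with MYC, 16.7 and 19.9 CPM with Zab and 21.2 and 15.8 CPM with both. Its MYC libraries are below all others, at 2.5 and 10 tags, and it fell 4.86-fold (log2 -2.28 ± 0.36 SE, limma adjusted p = 1.1e-07). CDC25C was counted on 6 transcripts over the 8 libraries. CDC25B, a relative of CDC25C, fell 2.87-fold and cyclin B2, CCNB2, 2.76-fold. CDK1 itself stood at 156 and 133 CPM in WT, 147 and 144 CPM with MYC, 118 and 122 CPM with Zab and 117 and 127 CPM with both, and CKS1B, a small CDK-binding protein, at 101 and 114 CPM in WT, 112 and 111 CPM with MYC, 104 and 102 CPM with Zab and 103 and 131 CPM with both. Neither passed the test with MYC (log2 0.02 ± 0.13 and 0.06 ± 0.15), and their WT and MYC ranges overlap. CCNB1 (chr5:68462977-68474070, hg19) stood at 1097 and 1081 CPM in WT, 1181 and 1212 CPM with MYC, 800.0 and 864 CPM with Zab and 1157 and 1130.0 CPM with both. It was slightly higher in both MYC libraries than in both WT libraries and rose 1.10-fold (log2 0.14 ± 0.053 SE, limma adjusted p = 0.023). That call ended on the deposited scale (adjusted p = 0.19), without WT replicate 2 (0.078), in genes counted on the same transcript in 8 libraries (0.54) and with library totals, where the log2 change was -0.0021.

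All 7 kinetochore and centromere genes fell. SPC24, an NDC80 complex subunit, was counted at 48.7 and 41.4 CPM in WT, 12.3 and 14.1 CPM with MYC, 40.0 and 31.7 CPM with Zab and 41.0 and 24.5 CPM with both, so the MYC libraries lie below the rest, and it fell 3.09-fold (log2 -1.63 ± 0.28 SE, limma adjusted p = 5.2e-07). Its lengths varied because 3 transcripts were used over the 8 libraries. CENPF, a large kinetochore protein, stood at 461 and 441 CPM in WT, 218 and 239 CPM with MYC, 304 and 269 CPM with Zab and 244 and 260.4 CPM with both. WT does not overlap with any other group, and CENPF fell 1.97-fold with MYC (log2 -0.98 ± 0.093 SE, limma adjusted p = 7.3e-15). NDC80, whose product binds microtubule ends, fell 1.58-fold, and CENPA, the centromeric histone, 2.18-fold. Of 9 kinesins, 6 fell, by log2 -0.74 to -1.38. KIFC1, the minus-end motor that focuses spindle poles, stood at 47.4 and 57.5 CPM in WT, 16.1 and 22.1 CPM with MYC, 37.1 and 23.6 CPM with Zab and 28.1 and 30.2 CPM with both, with MYC lowest, and fell 2.59-fold (log2 -1.38 ± 0.27 SE, limma adjusted p = 9.6e-06). KIF11, the motor that pushes spindle poles apart, was thinly covered at 42.3 and 24.7 CPM in WT, 20.9 and 20.9 CPM with MYC, 22.6 and 14.3 CPM with Zab and 25.2 and 12.9 CPM with both. Its libraries within WT and Zab+MYC lie far apart, and it did not pass the test with MYC (log2 -0.59 ± 0.32).

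Among spindle genes 5 of 7 fell. NUSAP1 (chr15:41625079-41673244, hg19), a microtubule-binding protein around chromosomes, stood at 242 and 199 CPM in WT, 64.9 and 77.2 CPM with MYC, 107 and 114 CPM with Zab and 72.6 and 76.2 CPM with both. Its WT libraries are the highest, Zab lies in the middle and the MYC and Zab+MYC ranges overlap at the bottom. It fell 3.04-fold with MYC (log2 -1.61 ± 0.15 SE, limma adjusted p = 1.8e-15). ASPM, a spindle pole protein, fell 2.48-fold, while TPX2, the activator of aurora A, fell 1.32-fold. Of 6 condensin and chromosome surface genes, 5 fell. NCAPD2, a subunit of condensin I, stood at 570.5 and 542 CPM in WT, 313 and 308 CPM with MYC, 356 and 379 CPM with Zab and 466 and 442 CPM with both. The 4 groups do not overlap, in the order WT, Zab+MYC, Zab and MYC, and NCAPD2 fell 1.79-fold with MYC (log2 -0.84 ± 0.079 SE, limma adjusted p = 4.5e-15). MKI67, the proliferation antigen that coats chromosomes, stood at 417 and 461 CPM in WT, 243 and 239.8 CPM with MYC, 304 and 264 CPM with Zab and 289 and 288 CPM with both, highest in WT and lowest in MYC, and fell 1.81-fold. Of 4 cytokinesis genes 3 fell, each by less than 2-fold.

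The 5 members that rose with MYC are cyclin B1, 2 checkpoint proteins and 2 partners of the APC/C. BUB3, a checkpoint protein that binds the kinetochore scaffold, stood at 119.7 and 119 CPM in WT, 208 and 201 CPM with MYC, 106 and 122 CPM with Zab and 161 and 157 CPM with both. MYC is the highest group, Zab+MYC is next, and WT and Zab overlap. BUB3 rose 1.70-fold (log2 0.77 ± 0.13 SE, limma adjusted p = 2.8e-07). MAD2L1, the MAD2 protein that inhibits CDC20, stood at 61.5 and 65.6 CPM in WT, 100 and 126 CPM with MYC, 51.0 and 47.8 CPM with Zab and 105 and 83.4 CPM with both, with both MYC groups above WT and Zab, and rose 1.75-fold (log2 0.80 ± 0.17 SE, limma adjusted p = 5.6e-05). CDC20 (chr1:43824652-43828873, hg19) stood at 557 and 632 CPM in WT, 724 and 734 CPM with MYC, 552 and 578 CPM with Zab and 829 and 770.4 CPM with both, again with both MYC groups above the others. It rose 1.23-fold (log2 0.30 ± 0.066 SE, limma adjusted p = 8.5e-05). UBE2C stood at 699 and 671 CPM in WT, 759 and 776 CPM with MYC, 561 and 589.6 CPM with Zab and 766 and 691 CPM with both and rose 1.12-fold (limma adjusted p = 0.024). The UBE2C call ended with library totals (adjusted p = 0.75), on the deposited scale (0.14), with DESeq2 (0.061), in same-transcript genes (0.38) and without WT replicate 2 (0.12) or MYC replicate 2 (0.051). CDCA3, a trigger of mitotic entry, went the other way, with 80.7 and 95.2 CPM in WT, 42.7 and 49.1 CPM with MYC, 51.7 and 45.9 CPM with Zab and 58.3 and 76.2 CPM with both. Its WT libraries are the highest, and it fell 1.88-fold (log2 -0.91 ± 0.19 SE, limma adjusted p = 4.6e-05). PLK1, AURKA and the 4 chromosomal passenger genes did not pass limma's test in MYC against WT, with log2 changes from -0.13 for CDCA8 to 0.34 for AURKB, the passenger complex kinase aurora B. AURKB was counted on 1 transcript in both WT libraries and on others in the remaining 6 libraries.

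**Figure D2:**
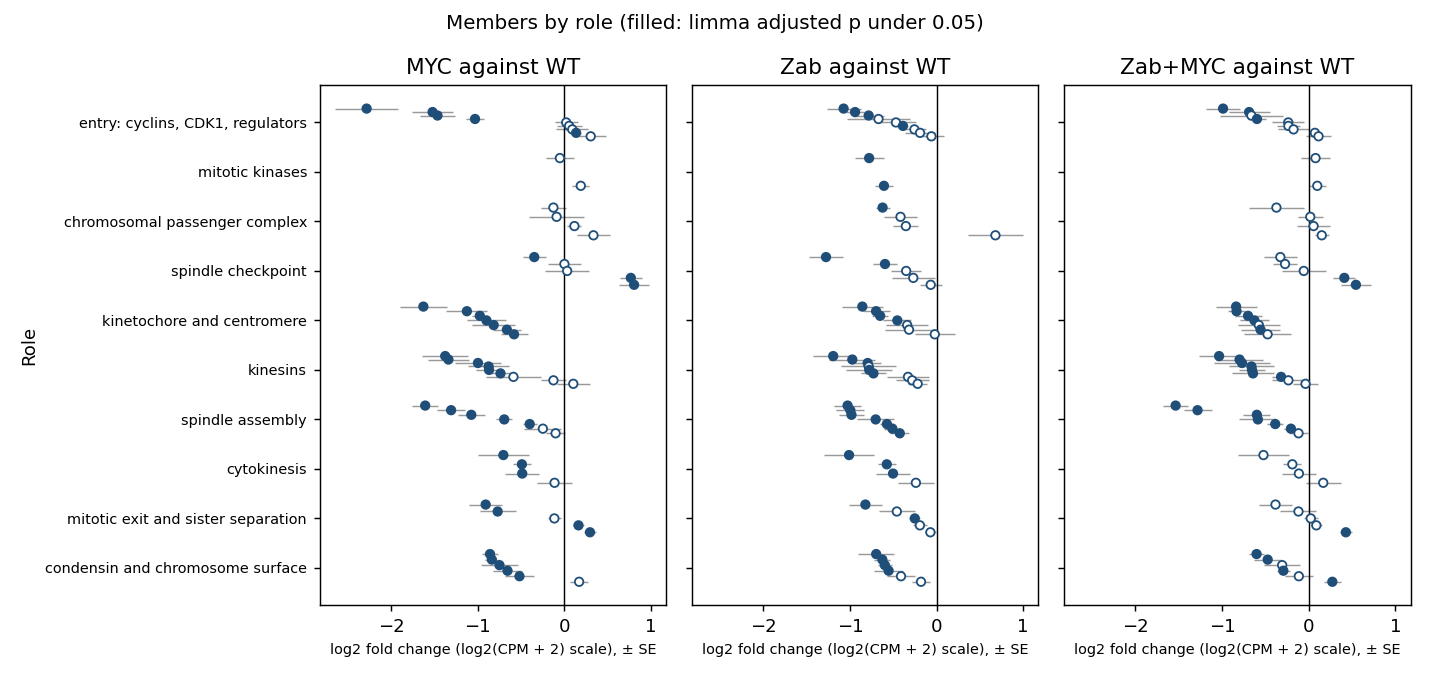
Points are the 58 genes by role (rows), with log2 fold change ± SE on the horizontal axis, filled where limma adjusted p is under 0.05. MYC against WT splits the list, with all 7 kinetochore genes lower and 5 genes of other roles higher, while in Zab against WT 57 of 58 points lie below 0.

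Zab without overexpressed MYC lowered a large share of the list. In Zab against WT 34 of 58 members fell, against 11.3% of all genes tested, and 57 of 58 had a log2 change below 0. None rose by limma, against 13.1% of all genes. The count of members higher was 1 at an unadjusted p under 0.05, and 0 with edgeR and with DESeq2. The median log2 change was -0.56, beside 0.00 over all genes tested. With the libraries summed, 27 members were at least 1.5-fold lower and 1 higher, against 12% and 11% of all genes. This comparison uses the same WT libraries as MYC against WT. On the deposited scale, where all genes shift by a median of -0.51, 57 members fell, against 4767 of 9673 genes, with a median of -1.10. DESeq2 called 21 members lower, against 402 of 9628 genes.

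PLK1 and AURKA, kinases of spindle assembly, fell with Zab. PLK1 (chr16:23690210-23701688, hg19), the polo-like kinase, stood at 262 and 320.4 CPM in WT, 327 and 335 CPM with MYC, 199 and 180.0 CPM with Zab and 286 and 336 CPM with both. The Zab libraries lie below all others, and PLK1 fell 1.52-fold (log2 -0.61 ± 0.10 SE, limma adjusted p = 1.2e-06). AURKA, aurora A of the spindle poles, stood at 120.4 and 95.7 CPM in WT, 90.5 and 118 CPM with MYC, 53.9 and 70.8 CPM with Zab and 132 and 97.1 CPM with both. Zab is again below the rest, which overlap, and AURKA fell 1.72-fold (log2 -0.78 ± 0.17 SE, limma adjusted p = 0.00017). BUB1B, the checkpoint protein BUBR1, stood at 89.6 and 72.039 CPM in WT, 82.0 and 78.9 CPM with MYC, 30.6 and 33.5 CPM with Zab and 66.2 and 61.1 CPM with both. Both Zab libraries are below all other libraries. BUB1B had the largest change of the list with Zab and fell 2.42-fold (log2 -1.28 ± 0.19 SE, limma adjusted p = 1.5e-07). BIRC5, survivin of the passenger complex, fell 1.54-fold. AURKB stood at 70.4 and 55.9 CPM in WT, 81.0 and 78.5 CPM with MYC, 37.9 and 57.1 CPM with Zab and 59.3 and 71.9 CPM with both, with Zab and WT overlapping, and did not pass the test with Zab (log2 -0.42 ± 0.20).

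All 7 spindle assembly genes fell with Zab, by log2 -0.42 to -1.03. TPX2 stood at 526 and 469 CPM in WT, 346 and 409 CPM with MYC, 332 and 335 CPM with Zab and 434 and 427 CPM with both. Its WT libraries are highest and its Zab libraries lowest, and it fell 1.49-fold (log2 -0.57 ± 0.082 SE, limma adjusted p = 4.9e-08). DLGAP5, a kinetochore fibre protein, stood at 163 and 132 CPM in WT, 69.2 and 68.0 CPM with MYC, 69.9 and 71.999 CPM with Zab and 97.3 and 94.9 CPM with both, with WT above all others, and fell 2.04-fold (log2 -1.03 ± 0.16 SE, limma adjusted p = 2.7e-07). In the entry group FOXM1 fell 1.92-fold (log2 -0.94 ± 0.10 SE, limma adjusted p = 1.5e-11), CCNB2 2.10-fold, cyclin A2 (CCNA2) 1.72-fold and CCNB1 1.31-fold. CDK1 and CKS1B did not pass the test (log2 -0.26 ± 0.13 and -0.06 ± 0.15).

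ECT2, which acts at the cleavage furrow in cytokinesis, stood at 37.1 and 37.1 CPM in WT, 18.5 and 26.2 CPM with MYC, 17.5 and 17.4 CPM with Zab and 32.6 and 19.4 CPM with both. WT is above Zab with no overlap, and ECT2 fell 2.01-fold (log2 -1.01 ± 0.29 SE, limma adjusted p = 0.0066). With DESeq2 the adjusted p was 0.17. NDC80 stood at 127 and 111 CPM in WT, 79.6 and 69.6 CPM with MYC, 77.2 and 96.8 CPM with Zab and 73.1 and 79.8 CPM with both. It fell 1.37-fold with Zab (limma adjusted p = 0.031), but not with DESeq2 (adjusted p = 0.32), with no filter (0.075), or without WT replicate 1 (0.26) or Zab replicate 1 (0.32). Among kinesins 5 of 9 fell, with KIF20A, a motor of the cleavage furrow, the furthest at 2.29-fold. Among condensin and chromosome surface genes 4 of 6 fell, and MKI67 fell 1.54-fold. CDC20 did not pass the test (log2 -0.07 ± 0.066), and UBE2C fell 1.19-fold (limma adjusted p = 0.0018), but not with DESeq2 (adjusted p = 0.084). INCENP, the scaffold of the passenger complex, was the single member with a log2 change above 0. It stood at 20.5 and 18.8 CPM in WT, 20.9 and 16.1 CPM with MYC, 40.8 and 26.1 CPM with Zab and 15.8 and 13.7 CPM with both, so both Zab libraries are above the rest, but the change did not pass the test (log2 0.68 ± 0.31, limma adjusted p = 0.11).

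**Figure D3:**
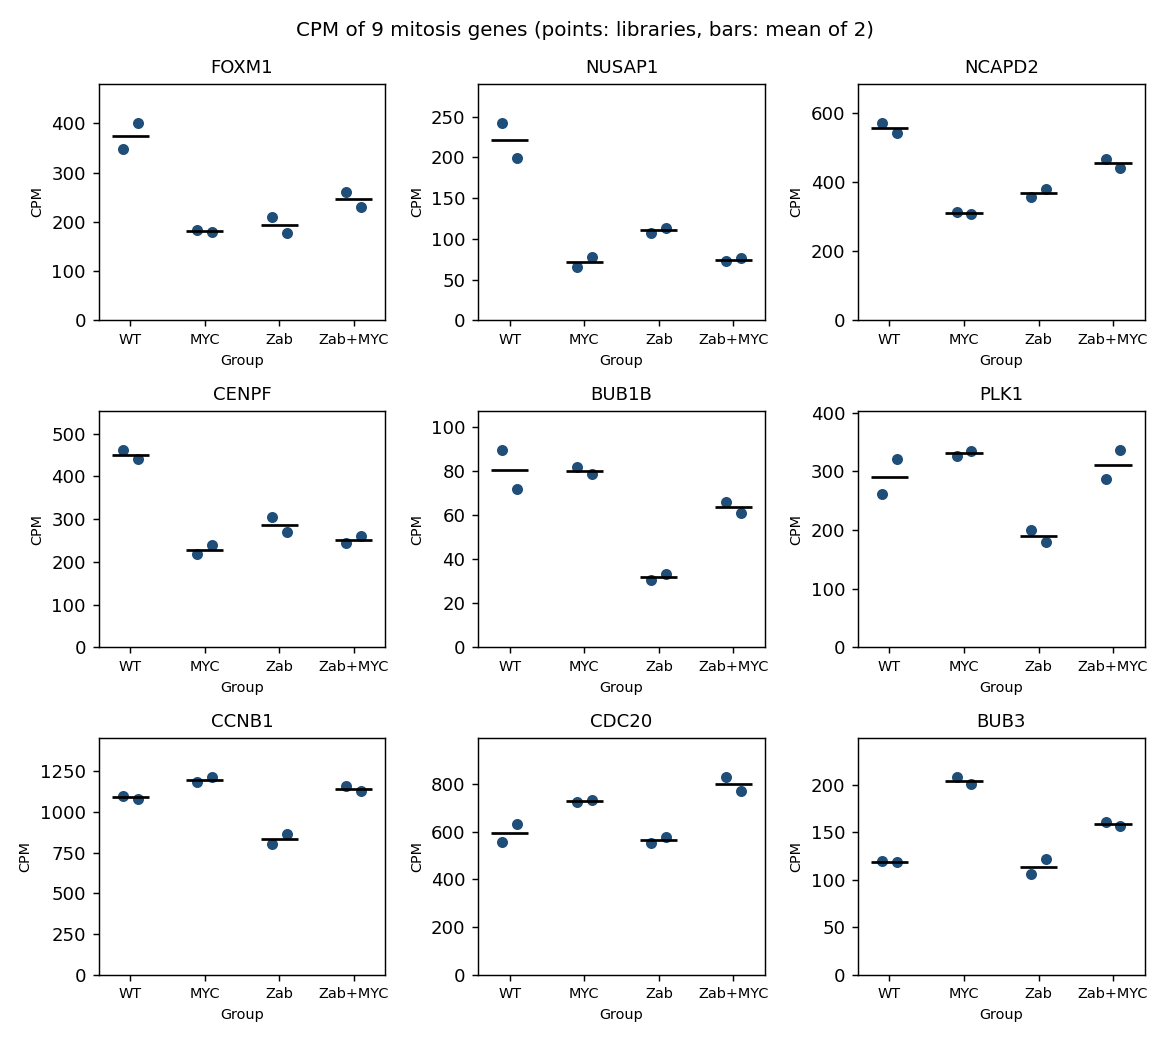
CPM of 9 genes in each library (points) with the mean of the 2 libraries of a group (bars), on axes that start at 0. FOXM1, NUSAP1, NCAPD2 and CENPF are highest in WT, BUB1B, PLK1 and CCNB1 are lowest in Zab, and CDC20 and BUB3 are highest in the groups with MYC.

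With both factors a part of the list stayed below WT. In Zab+MYC against WT 24 members fell, against 20.6% of all genes tested, and 4 rose, against 21.6%, with a median log2 change of -0.31. By group mean 43 of the 58 lay below WT but above the lower of the MYC and Zab groups, against 38.0% of all genes tested. The members that rose were BUB3, MAD2L1, CDC20 and NCAPH, a condensin I subunit, by log2 0.27 to 0.54. On the deposited scale the rises of BUB3, MAD2L1 and CDC20 ended (adjusted p = 0.87, 0.44 and 0.61), as did those of BUB3 and MAD2L1 with DESeq2 (0.11 and 0.12) and that of MAD2L1 without Zab+MYC replicate 1 (0.16). NUSAP1 stayed the lowest against WT and fell 2.90-fold (log2 -1.54 ± 0.15 SE, limma adjusted p = 2.5e-14). ASPM fell 2.44-fold and KIF20A 2.05-fold. The 4 cytokinesis genes, PLK1, AURKA and the 4 passenger genes did not pass limma's test in this comparison, with log2 changes from -0.52 for ECT2 to 0.17 for ANLN, anillin. With the libraries summed 0 members were at least 1.5-fold higher and 20 lower, against 18.2% and 21.3% of all genes. Over all genes, 1058 of 9628 fell and 1225 rose with DESeq2. On the deposited scale 3935 of 9673 fell and 1020 rose. The member counts follow. The count that fell was 15 without WT replicate 1, 13 with DESeq2 and 49 on the deposited scale. The count that rose was 2 without Zab+MYC replicate 1, 1 with DESeq2 and 0 on the deposited scale.

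Adding MYC to Zab cells raised PLK1, AURKA, 3 of 5 checkpoint genes and 3 of 5 mitotic exit genes by limma's test. With the libraries summed and a 1.5-fold limit, the share of members that were higher was near that of all genes, as given below. In Zab+MYC against Zab 20 members rose, against 14.3% of all genes tested, and 2 fell, against 12.5%, with a median of 0.26. AURKA rose 1.81-fold (log2 0.86 ± 0.17 SE, limma adjusted p = 3.7e-05) and PLK1 1.63-fold (log2 0.71 ± 0.10 SE, limma adjusted p = 2.9e-08). BUB1B rose 1.93-fold (log2 0.95 ± 0.19 SE, limma adjusted p = 7e-05), MAD2L1 1.86-fold and BIRC5 1.71-fold. CCNB1 rose 1.37-fold and CDC20 1.41-fold. The 7 kinetochore genes did not pass limma's test here, with log2 changes from -0.54 for NUF2 to 0.02 for CENPA. INCENP fell 2.08-fold (limma adjusted p = 0.0076), but not with DESeq2 (adjusted p = 0.15), without Zab replicate 1 (0.18) or without Zab+MYC replicate 2 (0.072). NUSAP1 fell 1.47-fold (limma adjusted p = 0.0027), with an adjusted p of 0.097 by DESeq2. Over all genes, 511 of 9628 rose with DESeq2 and 2159 of 9673 on the deposited scale. The member counts follow. The count that rose was 13 without Zab replicate 1, 11 with DESeq2 and 28 on the deposited scale, and with the libraries summed 7 members were at least 1.5-fold higher and 2 lower, against 10.9% and 14.5% of all genes.

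Adding Zab to MYC cells raised a small part of the list on the TMM scale. In Zab+MYC against MYC 13 members rose by limma, against 11.9% of all genes tested, and 2 fell, against 8.13%. By this test the share that rose, 22.4%, was above that background and the share that fell, 3.45%, below it. That excess was not seen with DESeq2, where 2 of the 58 members and 340 of 9628 genes rose. With the libraries summed, the share of members that were higher was below that of all genes, as given below. CDC25C rose 3.07-fold (log2 1.62 ± 0.36 SE, limma adjusted p = 0.00048), SPC24 2.22-fold (log2 1.152 ± 0.28 SE, limma adjusted p = 0.0012) and NCAPD2 1.46-fold (log2 0.54 ± 0.079 SE, limma adjusted p = 1.1e-07). DESeq2 gave no adjusted p for CDC25C here (unadjusted p = 0.0047). The CDC25C call ended without MYC replicate 1 (adjusted p = 0.11) and the SPC24 call without Zab+MYC replicate 1 (0.11). BUB3 fell 1.28-fold (limma adjusted p = 0.034), but not with DESeq2 (adjusted p = 0.13), library totals (0.089) or same-transcript genes (0.061), nor without MYC replicate 1 (0.15) or 2 (0.091) or Zab+MYC replicate 1 (0.07) or 2 (0.11). With the libraries summed 4 members were at least 1.5-fold higher and 0 lower, against 14.2% and 5.43% of all genes. The count that rose was 3 without MYC replicate 1, 8 without MYC replicate 2, 5 without either Zab+MYC library and 2 with DESeq2. The count that fell was 0 in each of these. The direction of the members' changes also depends on the scale. On the deposited scale 3 members rose and 17 fell, while 575 of 9673 genes rose and 2947 fell, shares near those of the members. The median of the members on that scale was -0.19, above the -0.31 over all genes.

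Whether the effect of MYC differed between cells with and without Zab was tested as an interaction, the log2 change of Zab+MYC against Zab minus that of MYC against WT. A value above 0 also means that Zab lowered the gene less, or raised it more, in MYC cells than in cells without MYC. In this test 37 of 58 members were above 0, against 14.6% of all genes tested, with a median of 0.66 beside 0.02 over all genes. None was called below 0 by limma, against 13.3% of all genes, with 1 at an unadjusted p under 0.05 and 0 with edgeR and with DESeq2. With the libraries summed, 33 members were at least 1.5-fold above 0 and 1 below, against 23.1% and 17.7% of all genes. The WT libraries enter this test and both comparisons with WT. In those comparisons 24 members (41.4%) fell with MYC and also with Zab, against 7.95% of all genes tested. Of these 24 members, 23 were above 0 in the interaction, as were 658 of the 769 such genes over all genes tested. So most genes that fell in both were above 0, member or not. Over all genes, 491 of 9628 were above 0 with DESeq2 and 2061 of 9673 on the deposited scale. The member counts follow. DESeq2 called 18 above 0, the deposited scale 44, and 29 to 34 were called without any 1 library.

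NCAPD2 had the smallest p of the list in this test (log2 1.14 ± 0.11 SE, limma adjusted p = 1.2e-13). FOXM1 followed (log2 1.37 ± 0.15 SE, limma adjusted p = 4.3e-12), with a fall with MYC in cells without Zab and a rise of 1.27-fold in Zab cells. That rise ended with DESeq2 (adjusted p = 0.17) and without Zab replicate 2 (0.18) or Zab+MYC replicate 1 (0.16). DLGAP5 (1.502 ± 0.22), MKI67 (0.88 ± 0.13), CENPF (0.79 ± 0.13) and TPX2 (0.77 ± 0.12), all as log2 ± SE, were also above 0. GTSE1, a microtubule-tip protein of G2, stood at 370.1 and 387 CPM in WT, 230.3 and 236 CPM with MYC, 262 and 268 CPM with Zab and 299 and 279 CPM with both. The 4 groups do not overlap, in the order WT, Zab+MYC, Zab and MYC, and the interaction was log2 0.82 ± 0.13 SE, limma adjusted p = 6.4e-07. PRC1, which bundles microtubules in the central spindle, stood at 298 and 309 CPM in WT, 205 and 226 CPM with MYC, 182 and 227 CPM with Zab and 254 and 278 CPM with both. WT is highest and MYC and Zab overlap, and the interaction was log2 0.87 ± 0.15 SE, limma adjusted p = 1.7e-06. Genes with no interaction call included CDK1 (log2 -0.001 ± 0.19), CKS1B (0.12 ± 0.21), BUB3 (-0.29 ± 0.18) and MAD2L1 (0.09 ± 0.25), of which BUB3 and MAD2L1 rose with MYC in both settings. The rise of BUB3 in Zab cells ended with DESeq2 (adjusted p = 0.11) and without Zab replicate 1 (0.055). The mRNA of MYC was at 718 and 716 CPM in Zab+MYC and 1255 and 1308 in MYC, and that of ADAR at 1083 and 1034 CPM in Zab+MYC and 6092 and 6286 in Zab. Without overexpressed MYC, MYC mRNA in Zab exceeded that in WT 2.51-fold (limma adjusted p = 1.7e-20). It rose 14.9-fold in MYC against WT and 3.33-fold in Zab+MYC against Zab (interaction log2 -2.16 ± 0.13 SE, limma adjusted p = 1.1e-23). ADAR rose 22.7-fold in Zab against WT and 4.34-fold in Zab+MYC against MYC (interaction log2 -2.38 ± 0.083 SE, limma adjusted p = 4.3e-37). The part of these unequal steps in the interaction of the members was not tested.

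**Figure D4:**
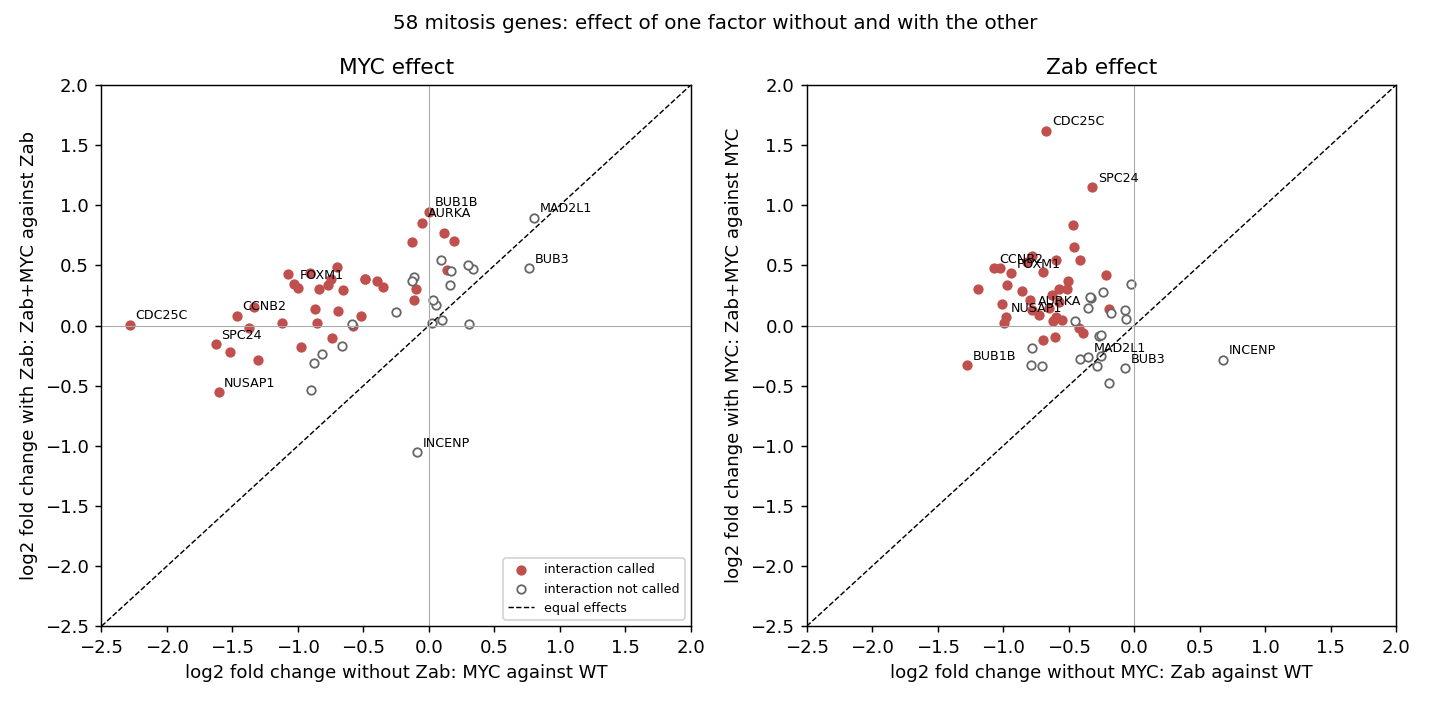
Each point is 1 of the 58 genes, with the log2 effect of MYC without Zab against that with Zab (left) and the effect of Zab without MYC against that with MYC (right); the dashed line marks equal effects and red marks a called interaction. The height of a point above the line is its interaction, so all 37 red points, called above 0, lie above it by definition. CDC25C lies farthest from the line.

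The pairs of effects in this plot share no library. Across the 58 genes the 2 MYC effects had Pearson r = 0.50, against 0.67 across all 9673 genes, and the 2 Zab effects had r = -0.19, against -0.14. The MYC effects had the same sign in 29 of the 58 and in 7249 of the 9673, and the Zab effects in 16 and in 4226. Genes are not independent replicates, and they share library and depth, so these are descriptions only.

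**Figure D5:**
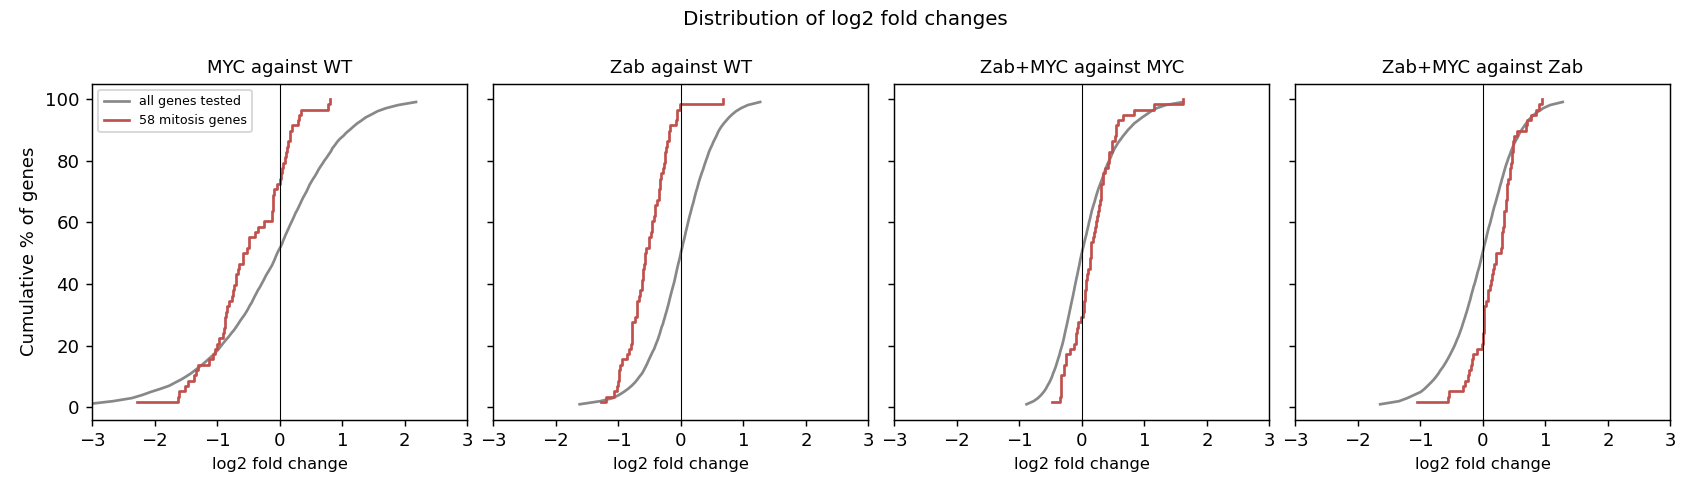
Cumulative percent of genes (vertical axis) by log2 fold change (horizontal axis), for the 58 genes in red and the 1st to 99th percentiles of all 9673 genes in grey. The red line lies left of the grey one over the upper part of its height in MYC against WT and nearly all of it in Zab against WT, where the medians are -0.55 and -0.56, and right of it over most of its height in both Zab+MYC comparisons.

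Other genes of the same processes were taken from lists by function. The shares to read these against are 30.4% lower and 27.8% higher of all genes tested with MYC, 11.3% and 13.1% with Zab, and 14.6% above and 13.3% below 0 in the interaction. Of 41 tested further mitosis genes, 21 fell and 3 rose with MYC, and 20 fell and 1 rose with Zab, with medians of -0.36 and -0.56. In the interaction 20 of them were above 0 and 1 below. The share that fell was 51.2% with MYC and 48.8% with Zab, and 48.8% were above 0 in the interaction. CIT, citron kinase of the cleavage furrow, fell furthest with MYC, 3.74-fold from a mean of 39.4 to 9.02 CPM, and CKAP2L, a spindle protein, fell 2.80-fold. DEPDC1 fell 2.18-fold with Zab. Of 16 tested APC/C subunits and regulators 3 fell and 4 rose with MYC and 3 fell and 2 rose with Zab. With MYC 18.8% fell and 25% rose, both below the shares over all genes. FZR1, the G1 activator of the APC/C, fell 2.25-fold with MYC, ANAPC1, a subunit of the APC/C, rose 2.08-fold with MYC, and UBE2S, which extends ubiquitin chains, fell 1.88-fold with Zab. CDC26, another subunit, rose 1.82-fold with Zab. Of 9 cohesin genes, which hold sister chromatids together, 2 fell with MYC, 22.2% of the list, RAD21 by 1.59-fold and the loader NIPBL by 1.52-fold, and 1 rose. RAD21 also fell with Zab, by 1.62-fold.

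Of 19 DREAM, MuvB, E2F and pocket protein genes, 5 fell and 3 rose with MYC and 1 fell and 2 rose with Zab. Their shares were below those over all genes in both comparisons and directions, at 26.3% and 15.8% with MYC and 5.26% and 10.5% with Zab. E2F7, a repressor of the E2F family, fell 2.80-fold and RBL2, the p130 pocket protein of DREAM, 2.78-fold with MYC. CDKN1A, the CDK inhibitor p21, stood at 269 and 277 CPM in WT, 169 and 173 CPM with MYC, 520.5 and 509.6 CPM with Zab and 387 and 362 CPM with both. Zab is its highest group and MYC its lowest, and it rose 1.88-fold with Zab (log2 0.91 ± 0.089 SE, limma adjusted p = 1.5e-13). E2F4, the E2F partner in DREAM, rose 1.49-fold with Zab. Its group means were 78.3 CPM in WT, 166 with MYC, 118 with Zab and 121 with both, so MYC was its highest group. Of 8 genes that hold back or release entry into mitosis, G2 checkpoint genes among them, 2 rose with MYC (25%, near the share over all genes), CDC25A by 3.84-fold and the checkpoint kinase CHEK1 by 1.65-fold. With Zab 0 of these 8 genes rose and 0 fell. Their median log2 change was -0.32, with 5 below 0 and 3 above. CDC25A, the phosphatase that also acts at G1/S, thus rose where CDC25B and CDC25C fell.

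Of 39 tested G1/S and replication genes, 10 fell and 12 rose with MYC, with a median of 0.07, and 12 fell with Zab, with a median of -0.25. In the interaction 9 of them were above 0 and 2 below. With MYC 25.6% fell and 30.8% rose, near the shares over all genes, and with Zab 30.8% fell. TK1, thymidine kinase, fell 3.19-fold with MYC and 2.27-fold with Zab, GINS2, of the replicative helicase, fell 1.959-fold with Zab, and POLE2, a subunit of DNA polymerase epsilon, rose 2.43-fold with MYC. The difference between this list and the 58 mitosis genes was not tested.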

How the data were processed

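Gene expression was measured in 8 U2OS libraries. The submitters' processing notes name STAR, Trim Galore 0.6.6 and HOMER 4.11.1, and 2 builds, dm6 and hg19, without saying what each was for. Per the file headers, HOMER counted exon tags for coding RefSeq genes on hg19, with a single transcript for each symbol. That transcript differed between libraries for 25 of the 58 members. Over the 8 libraries ECT2 was counted on 7 transcripts, CDC25C on 6, and FOXM1 and NUSAP1 on 4 each. The deposited values are a scaled signal. In every library 100% of them were whole multiples of 1 step, within 0.1 step. The origin of the scale is not stated there. Tags were recovered by taking 2 steps as 1 tag, an assumption. With 1 step per tag, exon tags would exceed the header's total in every library. Use of strand is not stated there either, which leaves overlapping genes uncertain, and CKS1B and CKS2 are close paralogs.

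Genes were kept with filterByExpr (9673). After TMM scaling, log2(CPM + 2) of all 8 libraries went into limma (trended prior), 4 residual degrees of freedom, two-sided, with Benjamini-Hochberg adjustment. Count tests on rounded recovered tags called 2811 genes higher and 3100 lower (edgeR) and 2021 and 1975 (DESeq2) in MYC against WT, against 2690 and 2941 for limma. Alternatives changed scaling, pseudocount, filter, tool, replicate block, samples and transcripts, and left out each library. Summing the libraries was chosen after seeing the data. Members and lists were chosen with earlier results of these data known. The members named with values were 12 fixed by role, the largest called change in each role, those called against the majority, and the 8 smallest interaction p-values; of the other lists, the 2 largest called changes with MYC and with Zab. A gene that this rule names in the other lists is not reported here. A few others are named after their values were seen. The fits were tested on simulated data. Fits ran in R 4.3.3 with DESeq2 1.42.0, limma 3.58.1 and edgeR 4.0.16. Summaries and plots ran in Python 3.11.15 with pandas 2.3.3, matplotlib 3.10.9, scipy 1.17.1 and numpy 2.4.6.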

Additional observations from a re-analysis of the deposited data

Results flagged for a closer look

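The effect of MYC on mitosis genes differed between cells with and without Zab by the interaction test. In it 37 of the 58 genes were above 0 (limma adjusted p under 0.05), against 14.6% of all genes tested. DESeq2 called 18 of the 58 above 0, against 491 of 9628 genes. By limma, most genes that fell with MYC and also with Zab were above 0. They were 23 of 24 such members and 658 of 769 such genes over all genes tested. Among the genes named with values, the log2 interaction was 1 or more for CDC25C 2.29, DLGAP5 1.502, SPC24 1.47, FOXM1 1.37, KIFC1 1.35, CDCA3 1.34, ECT2 1.19, NCAPD2 1.14 and NUSAP1 1.05. It was below 1 for BUB1B 0.95, AURKA 0.91, MKI67 0.88, PRC1 0.87, GTSE1 0.82, CENPF 0.79, TPX2 0.77, PLK1 0.52 and CCNB1 0.32. Calls that ended in some alternative were those of AURKA, BUB1B, ECT2, KIFC1, PLK1 and SPC24. With DESeq2 the adjusted p was 0.071 for AURKA, 0.11 for BUB1B, 0.11 for KIFC1, 0.087 for PLK1 and 0.053 for SPC24. DESeq2 gave no adjusted p for CDC25C and ECT2, with unadjusted p = 0.0031 and 0.051, so it called neither. The BUB1B call was also lost without WT replicate 1 (adjusted p = 0.054). Those of AURKA and SPC24 were lost without Zab+MYC replicate 1 (0.076 and 0.058), and that of PLK1 without WT replicate 2 (0.07) or Zab+MYC replicate 2 (0.11). The ECT2 call was lost with no filter (adjusted p = 0.084) and without WT replicate 1 (0.062), WT replicate 2 (0.058), MYC replicate 1 (0.15) or Zab+MYC replicate 1 (0.2).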

How the results depend on the processing

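Below, MYC and Zab effects are against WT, MYC in Zab is Zab+MYC against Zab, Zab in MYC is Zab+MYC against MYC, and the joint effect is Zab+MYC against WT. On the deposited scale, with medians over all genes of -0.09 for MYC and -0.51 for Zab against WT, 0.14 for adding MYC to Zab cells, -0.31 for adding Zab to MYC cells, -0.37 for both factors against WT and 0.22 for the interaction, the members higher and lower were 3 and 33, 0 and 57, 28 and 2, 3 and 17, 0 and 49, and 44 and 0 in that order. Of the named genes 3 turned for Zab in MYC on that scale, MKI67 to log2 -0.07318, GTSE1 to -0.02149 and PRC1 to -0.02787, and CCNB1 for MYC turned with library totals (-0.002067). Library totals, where the median over all genes for MYC was -0.17, gave 3 members higher for MYC and 0 lower for Zab in MYC. With DESeq2 21 fell for Zab, 2 rose and 0 fell for Zab in MYC, 11 rose and 0 fell for MYC in Zab, 1 rose and 13 fell for the joint effect, and 18 were above 0 in the interaction. DESeq2 also called fewer genes than limma over all genes in each of these comparisons. With no filter 8 rose for Zab in MYC. Among the 33 members counted on 1 transcript in all libraries, fewer genes by construction, 3 rose and 19 fell for MYC, 0 fell for Zab in MYC, 11 rose and 0 fell for MYC in Zab, 15 fell for the joint effect and 23 were above 0 in the interaction. With libraries summed and a 1.5-fold limit the members higher were 2 for MYC, 1 for Zab, 4 for Zab in MYC, 7 for MYC in Zab and 0 for the joint effect, those lower 0 for Zab in MYC, and 1 was below 0 in the interaction.

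Leaving out 1 library gave, for members higher and lower, 4 to 6 and 25 to 33 for MYC, 0 to 1 and 28 to 33 for Zab, 3 to 13 and 0 to 2 for Zab in MYC, 13 to 20 and 1 to 3 for MYC in Zab, 2 to 4 and 15 to 25 for the joint effect, and 29 to 34 and 0 to 1 in the interaction. Where it leaves a group with 1 library, that library is assumed to vary like the others. Replicates of the same number did not deviate together (r from -0.023 to 0.014 over 9673 genes), so the numbers do not pair them. With replicate number as a block 5 members rose and 33 fell for MYC, 0 and 35 for Zab, 13 and 2 for Zab in MYC, 20 and 3 for MYC in Zab, 4 and 25 for the joint effect, and 37 and 0 in the interaction. Of 95 calls of named genes, 58 kept direction and threshold in every alternative that gave an adjusted p. DESeq2 gave none for 3 of the 95, 1 of them among the 58, and 19 of the 58 could not be tested on 1 transcript. Where no cause is given above, the cause was not tested. Depth limits the lowest members, with CDC25C at 2.5 tags and KIF11 and INCENP at 9 and 9.5 in their lowest libraries.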
